A study of Mus musculus with 8 samples.

Results

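Clade B serpins are intracellular protease inhibitors of the ovalbumin type, and 10 of their genes were followed here in mouse keratinocytes that carry an oncogenic RAS gene and either lack or hold Nfkbiz. The members were the genes Serpinb1b, Serpinb2, Serpinb3a, Serpinb6a, Serpinb6b, Serpinb6c, Serpinb6e, Serpinb7, Serpinb9b and Serpinb11. Each was taken as the array probe set, a group of short probes against 1 transcript, whose platform annotation gives exactly that symbol, and all 10 had 1 such probe set among the 9294 genes tested. The knockout RAS group held 4 arrays of Nfkbiz KO keratinocytes of the C57BL/6 strain, and the wild-type RAS group held 4 arrays of wildtype keratinocytes of the same strain. All 8 cultures had been transduced with v-rasHa, an activated viral form of Hras, for 3 days in regular medium without starvation, and the labels describe the 4 samples of each genotype as biological replicates. The labels give neither the kind of Nfkbiz allele nor the number of animals behind the cultures, and no culture without v-rasHa was analysed here.

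A serpin folds into a metastable shape with an exposed reactive centre loop that a protease cuts as if it were a substrate. The cut lets the loop insert into the body of the serpin, and the protease is trapped and distorted in the process, so each molecule works only once. Clade B serpins lack a classical signal peptide and act mainly in the cytosol and nucleus, where they guard cells against their own or foreign proteases. In stratified epithelia and leukocytes they meet lysosomal cathepsins, kallikreins, granzymes and plasminogen activators. Nfkbiz encodes IkBz, a nuclear protein that binds NF-kB subunits and regulates a subset of NF-kB target genes.

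Values are log2 signals, so a difference of 1 is a doubling, and log2 fold changes are knockout RAS minus wild-type RAS. Array medians lay between 4.49 and 4.57, and lower quartiles between 3.33 and 3.39. Correlations across probe sets, which are not independent replicates, were 0.997 to 0.998 within a genotype and 0.994 to 0.996 between genotypes. Of 9294 genes, 827 (8.9%) passed an adjusted p of 0.05 in limma, 415 (4.47%) higher and 412 (4.43%) lower in knockout RAS. With arrays centred on their median the split was 482 higher and 314 lower. Nfkbiz itself was not analysed here, so the knockout was not checked from these values. Of 10 keratinocyte markers, Col17a1 fell and 9 did not pass the test, and Krt5, a basal keratin, averaged 13.29 ± 0.06 in knockout RAS and 13.42 ± 0.03 in wild-type RAS (SD, n = 4 each).

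The promoters of the 4 members that passed the test are shown because these genes moved in different directions and lie in different clusters. Each sequence is the 300 bases from 250 before to 50 after the start of the RefSeq gene, in GRCm38.p6, on the strand of the gene. Capitals mark matches to the AP-1 motif TGANTCA on either strand.
Serpinb6b (chr13:32965011-32965310, plus strand): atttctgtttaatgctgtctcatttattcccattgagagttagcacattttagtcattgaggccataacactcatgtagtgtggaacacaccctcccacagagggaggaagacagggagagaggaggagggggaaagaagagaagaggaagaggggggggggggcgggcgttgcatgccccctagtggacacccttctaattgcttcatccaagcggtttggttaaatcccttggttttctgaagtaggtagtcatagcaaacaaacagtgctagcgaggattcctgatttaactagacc
Serpinb9b (chr13:33027164-33027463, plus strand): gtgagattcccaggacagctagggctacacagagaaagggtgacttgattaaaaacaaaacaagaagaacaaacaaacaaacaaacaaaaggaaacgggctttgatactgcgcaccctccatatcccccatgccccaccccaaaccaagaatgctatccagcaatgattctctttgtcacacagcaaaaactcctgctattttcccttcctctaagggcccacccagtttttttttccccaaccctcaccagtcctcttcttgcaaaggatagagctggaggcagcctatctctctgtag
Serpinb7 (chr1:107422439-107422738, plus strand): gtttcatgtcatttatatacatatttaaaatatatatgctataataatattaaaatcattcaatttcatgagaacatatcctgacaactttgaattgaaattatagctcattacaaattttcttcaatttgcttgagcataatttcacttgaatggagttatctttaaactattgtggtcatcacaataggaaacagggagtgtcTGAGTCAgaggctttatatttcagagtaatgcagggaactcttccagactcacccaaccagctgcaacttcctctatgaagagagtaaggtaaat
Serpinb6c (chr13:33905142-33905441, minus strand): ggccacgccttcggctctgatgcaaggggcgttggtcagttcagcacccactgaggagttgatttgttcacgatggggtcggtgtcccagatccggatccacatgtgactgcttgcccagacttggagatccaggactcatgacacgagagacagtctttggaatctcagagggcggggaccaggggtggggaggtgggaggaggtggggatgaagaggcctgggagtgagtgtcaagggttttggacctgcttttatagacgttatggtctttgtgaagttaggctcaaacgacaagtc

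In knockout RAS cells the serpin gene Serpinb6b rose 3.22-fold, Serpinb9b rose 1.64-fold and Serpinb7 rose 1.49-fold, while Serpinb6c fell 1.59-fold. The remaining 6 members, Serpinb2 and Serpinb6a among them, did not pass the test. That is 4 of 10 members called, 3 higher and 1 lower, where 8.9% of all 9294 genes were called, 4.47% higher and 4.43% lower. The members were chosen with earlier results of these data known, so these shares are not a test of the family. Serpinb9d and Serpinb9g, the 2 other clade B genes measured, did not pass the test. The median size of the log2 fold change was 0.21 over the members and 0.0743 over all genes, and the signed medians were 0.11 and -0.01. In these bulk cultures, fewer cells of a type and less RNA per cell cannot be told apart.

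**Figure D1:**
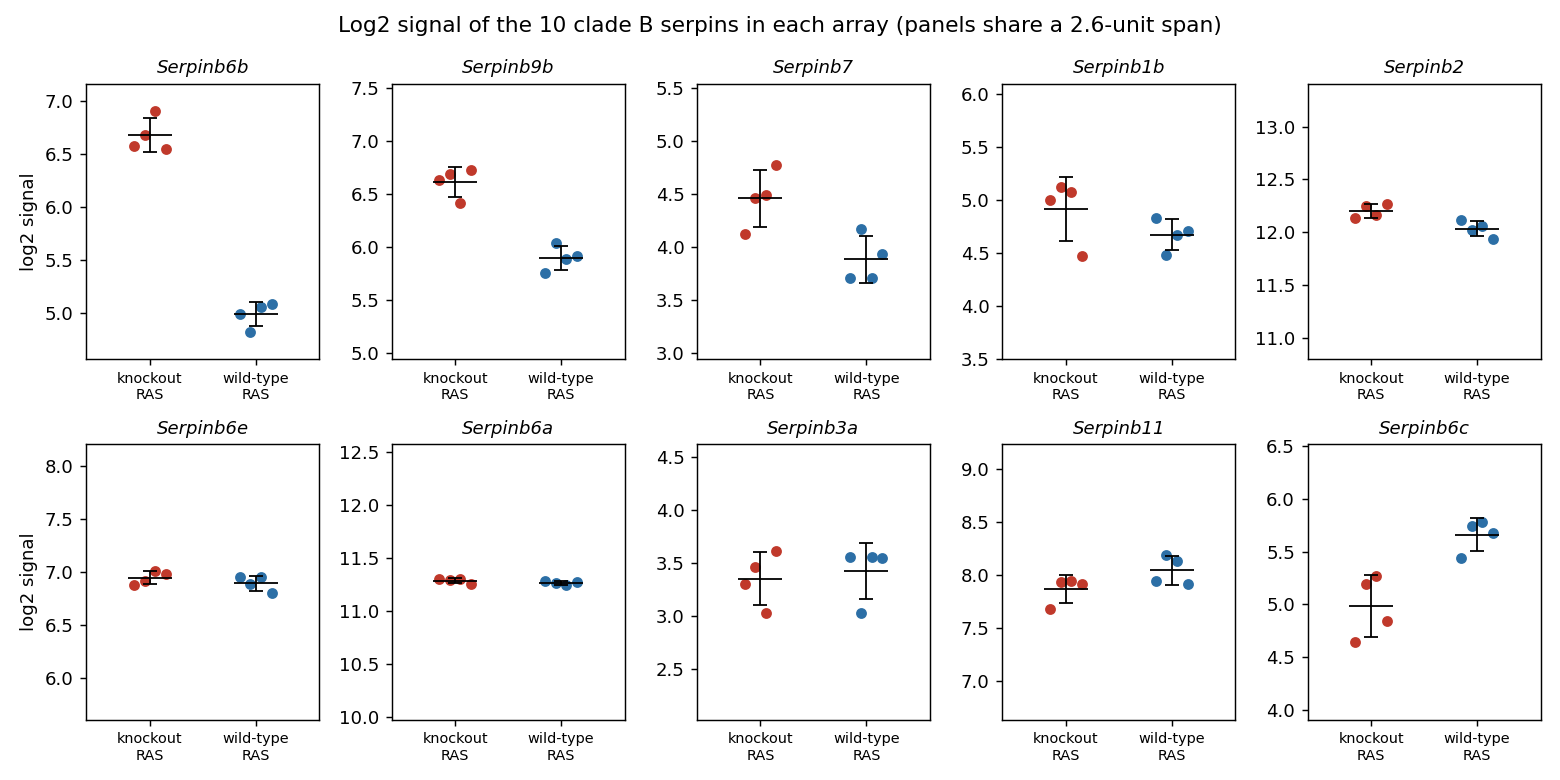
Log2 signal of each clade B serpin in every array, with knockout RAS (red, left) and wild-type RAS (blue, right), the mean as a bar and the SD as whiskers (n = 4 each). Every panel spans the same range of log2 units, and Serpinb6b, with knockout RAS values of 6.55 to 6.91 and wild-type RAS values of 4.83 to 5.09, has the widest gap.

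Serpinb6b, which in the mouse encodes an inhibitor of granzyme A, had log2 signals of 6.58, 6.69, 6.91 and 6.55 in knockout RAS arrays, against 4.99, 4.83, 5.06 and 5.09 in wild-type RAS arrays. Every knockout RAS array lay above every wild-type RAS array, and the gap between the groups was wider than the range within either. The log2 fold change was 1.69 ± 0.09 (SE; 95% interval 1.497 to 1.88; limma adjusted p = 6.17e-07), which placed it 4 in the order of rises among all genes tested. Only 12 genes, itself included, changed by as much in either direction. Leaving out any single array kept the log2 fold change between 1.61 and 1.73.

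Its closest relatives in name did not follow it. Serpinb6a, the mouse counterpart of human SERPINB6, an inhibitor of cathepsin G and of the kallikrein KLK8, had log2 signals of 11.295, 11.293, 11.297 and 11.253 in knockout RAS arrays, against 11.280, 11.258, 11.244 and 11.268 in wild-type RAS arrays. The groups overlapped and differed by 0.02 ± 0.05 (SE; 95% interval -0.08 to 0.12; adjusted p = 0.856). Serpinb6e, on a probe set marked _x_at, which can bind unrelated transcripts, had 6.88, 6.92, 7.01 and 6.98 in knockout RAS arrays, against 6.95, 6.89, 6.95 and 6.80 in wild-type RAS arrays. These groups overlapped as well, with a log2 fold change of 0.05 ± 0.06 (95% interval -0.07 to 0.17; adjusted p = 0.697).

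Serpinb6c ran the other way. It had log2 signals of 4.64, 5.19, 5.27 and 4.84 in knockout RAS arrays, against 5.44, 5.74, 5.78 and 5.68 in wild-type RAS arrays. All knockout RAS values were below all wild-type RAS values, and the knockout RAS values were spread more widely, with an SD of 0.29 against 0.16 in wild-type RAS. Its log2 fold change was -0.67 ± 0.13 (SE; 95% interval -0.96 to -0.38; adjusted p = 0.00803), and it stayed between -0.77 and -0.56 with any single array left out. Its probe set is marked _s_at, which can bind several transcripts of related genes, so the value may not be of Serpinb6c alone.

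The difference in response between the Serpinb6 genes was tested directly, from the within-array difference of their log2 signals. In 5 of 6 pairs the knockout RAS and wild-type RAS arrays separated fully, with an exact two-sided permutation p of 0.0286, the smallest that 4 against 4 arrays can give, and 0.0343 after Benjamini-Hochberg adjustment over the 6 pairs. Serpinb6b and Serpinb6c responded 2.36 log2 units apart, Serpinb6b and Serpinb6a 1.67 apart, and Serpinb6b and Serpinb6e 1.64 apart. Serpinb6c lay 0.70 log2 units below Serpinb6a and 0.72 below Serpinb6e in response. The remaining pair, Serpinb6e and Serpinb6a, differed by 0.03 (exact permutation p = 0.543, n = 4 each). The test of pairs was chosen after the values were seen. Serpinb6b and Serpinb6c had each separated by genotype alone, and each of the 5 pairs holds at least 1 of them. The pairs also share genes, so they are not independent and largely restate the changes of Serpinb6b and Serpinb6c.

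Serpinb9b, also called SPI-CI and described in the mouse as an inhibitor of granzyme M, had log2 signals of 6.62, 6.68, 6.41 and 6.72 in knockout RAS arrays, against 5.75, 6.03, 5.88 and 5.91 in wild-type RAS arrays. The groups did not overlap. This was a log2 fold change of 0.72 ± 0.08 (SE; 95% interval 0.54 to 0.89; adjusted p = 0.000178), and leaving out single arrays kept it between 0.67 and 0.78. Its relatives Serpinb9d and Serpinb9g, which have probe sets of their own, had means of 3.60 and 2.29 in knockout RAS, against 3.49 and 2.20 in wild-type RAS. Their log2 fold changes were 0.10 ± 0.10 and 0.09 ± 0.06 (SE; adjusted p = 0.625 and 0.458). The Serpinb9g signal was below the lower quartile of every array, too low to tell from background.

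Serpinb7, known as megsin, whose human counterpart is mutated in a palmoplantar keratosis of Nagashima type, had 4.12, 4.46, 4.48 and 4.77 in knockout RAS arrays, against 3.71, 4.17, 3.71 and 3.93 in wild-type RAS arrays. The groups overlapped by 1 array on each side, knockout RAS replicate 1 lying just under wild-type RAS replicate 2. The log2 fold change was 0.58 ± 0.14 (SE; 95% interval 0.28 to 0.88; adjusted p = 0.0223). Of 8 arrays, 7 had a Serpinb7 signal below the array median. The call was the least stable of the 4. It was lost without knockout RAS replicate 2, 3 or 4 (adjusted p = 0.0530, 0.0609 and 0.0564) and without wild-type RAS replicate 1, 3 or 4 (0.0616, 0.0654 and 0.0529). The log2 fold change lay between 0.47 and 0.60 in these 6 runs.

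**Figure D2:**
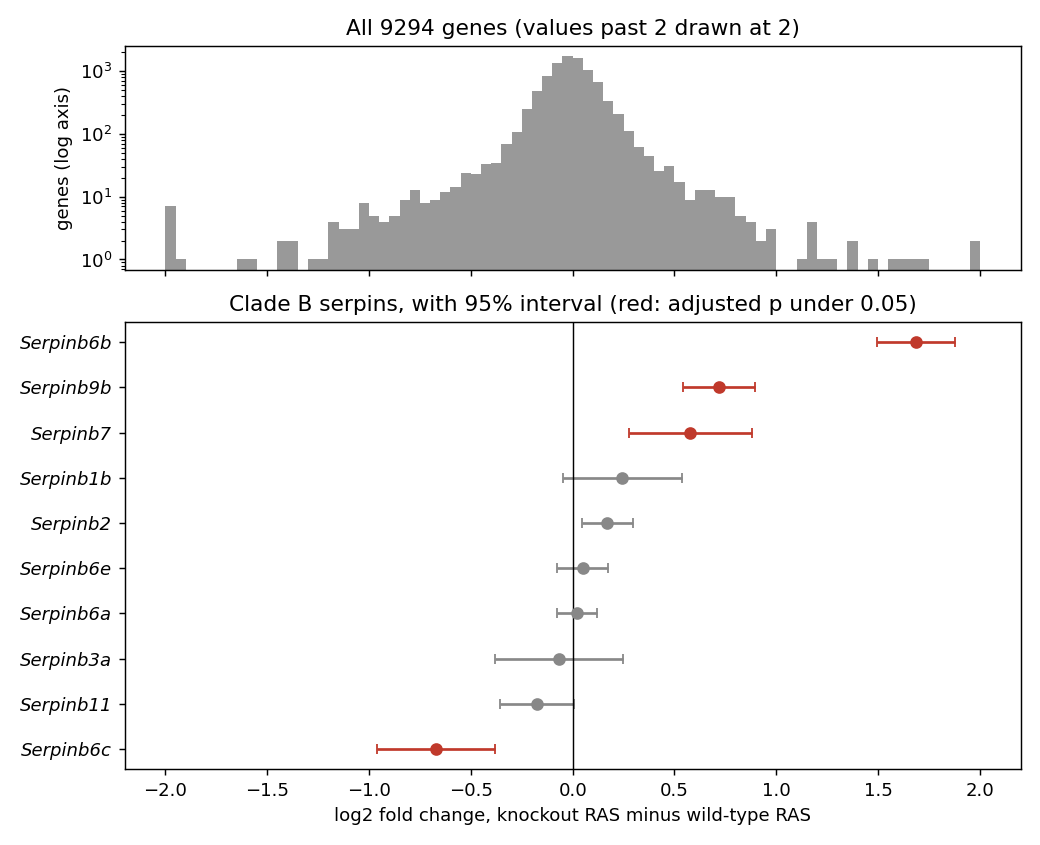
Upper panel, a histogram of the log2 fold change (knockout RAS minus wild-type RAS) of all 9294 genes on a log count axis, with values beyond the ends drawn at the ends. Lower panel, the log2 fold change of each clade B serpin with its 95% interval, red where the adjusted p was under 0.05, from 1.69 for Serpinb6b down to -0.67 for Serpinb6c.

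Serpinb2, which encodes PAI-2, an inhibitor of the urokinase and tissue plasminogen activators, had log2 signals of 12.14, 12.25, 12.16 and 12.27 in knockout RAS arrays, against 12.12, 12.02, 12.06 and 11.94 in wild-type RAS arrays. The groups did not overlap, which was also the case for 15.9% of all genes (7.91% higher and 7.97% lower in knockout RAS), and the margin between them was narrow. Serpinb2 had a log2 fold change of 0.17 ± 0.06 (SE; 95% interval 0.04 to 0.30), and it did not pass the test (adjusted p = 0.104). In a fit whose prior variance follows the mean signal, the same fold change had an adjusted p of 0.00287. With Serpinb6b, Serpinb9b and Serpinb6c, Serpinb2 was 1 of 4 members whose groups did not overlap.

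Serpinb1b, a paralogue of the leukocyte elastase inhibitor Serpinb1a, had 4.99, 5.12, 5.08 and 4.47 in knockout RAS arrays, against 4.83, 4.48, 4.67 and 4.71 in wild-type RAS arrays. In knockout RAS 3 arrays lay above every wild-type RAS array and replicate 4 lay below them all. The log2 fold change was 0.24 ± 0.13 (SE; 95% interval -0.05 to 0.54; adjusted p = 0.34). Without knockout RAS replicate 4 it was 0.39 ± 0.08 with an adjusted p of 0.0186, so this array decided the call.

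Serpinb11, an epithelial serpin, had 7.68, 7.94, 7.95 and 7.91 in knockout RAS arrays, against 7.94, 8.19, 8.13 and 7.92 in wild-type RAS arrays. The groups overlapped, with a log2 fold change of -0.18 ± 0.08 (SE; 95% interval -0.36 to 0.0065; adjusted p = 0.263). Serpinb3a, a mouse relative of the human squamous cell carcinoma antigens, had 3.30, 3.46, 3.02 and 3.61 in knockout RAS arrays, against 3.55, 3.02, 3.55 and 3.54 in wild-type RAS arrays. All of these lay below the array medians and 3 of 8 below the lower quartiles, on a probe set marked _x_at, so a level of this gene could not be told from background. Its log2 fold change was -0.07 ± 0.14 (SE; 95% interval -0.38 to 0.25; adjusted p = 0.859).

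**Figure D3:**
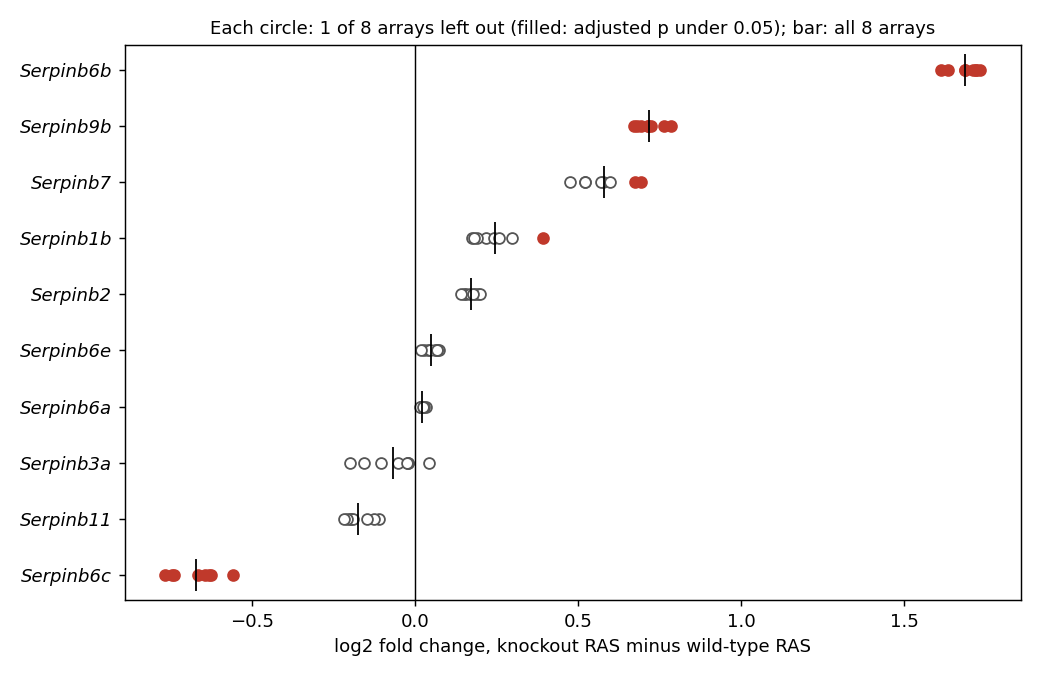
Log2 fold change (knockout RAS minus wild-type RAS) of each clade B serpin with 1 of the 8 arrays left out at a time; filled circles had an adjusted p under 0.05 and the black bar is the value from all 8 arrays. Serpinb6b, Serpinb9b and Serpinb6c kept filled circles throughout, Serpinb7 kept 2 of 8, and the filled circle of Serpinb1b at 0.39 is the run without knockout RAS replicate 4.

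In the reference gene order of GRCm38.p6 the clade B genes form 2 clusters, of 12 protein-coding genes on chromosome 1 and 16 on chromosome 13. Of the members, 4 lie on chromosome 1 (Serpinb3a, Serpinb11, Serpinb7 and Serpinb2, in that order) and 6 on chromosome 13 (Serpinb6b, Serpinb9b, Serpinb1b, Serpinb6e, Serpinb6c and Serpinb6a). On chromosome 13 the largest rise, Serpinb6b, and the next, Serpinb9b, have only Serpinb9 between them, and Serpinb1b comes directly after. Serpinb6c, the member that fell, lies at the opposite end of that cluster between Serpinb6e and Serpinb6a, neither of which passed the test. On chromosome 1, Serpinb7 lies between Serpinb11 and Serpinb2, which had log2 fold changes of -0.18 and 0.17. A total of 16 of the 28 genes of both clusters, Serpinb9 and Serpinb5 among them, were not analysed here, so the order is only partly covered.

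The nearest measured genes outside the clusters were compared with the members. Wrnip1, before the chromosome 13 cluster, averaged 8.56 ± 0.03 in knockout RAS and 8.47 ± 0.04 in wild-type RAS (SD, n = 4 each), with an adjusted p of 0.343. Tubb2b, a beta-tubulin gene after the same cluster, averaged 10.71 ± 0.10 in knockout RAS and 10.23 ± 0.05 in wild-type RAS, and rose by 0.48 ± 0.06 (SE; adjusted p = 0.000384). The nearest measured genes around the chromosome 1 cluster, Phlpp1 and Cdh19, had log2 fold changes of 0.01 and -0.07 (adjusted p = 0.974 and 0.81). Counted in protein-coding genes outward from its cluster, Wrnip1 was gene 1, Cdh19 gene 2, Phlpp1 gene 4 and Tubb2b gene 5. Only Wrnip1 is thus directly next to a cluster.

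**Figure D4:**
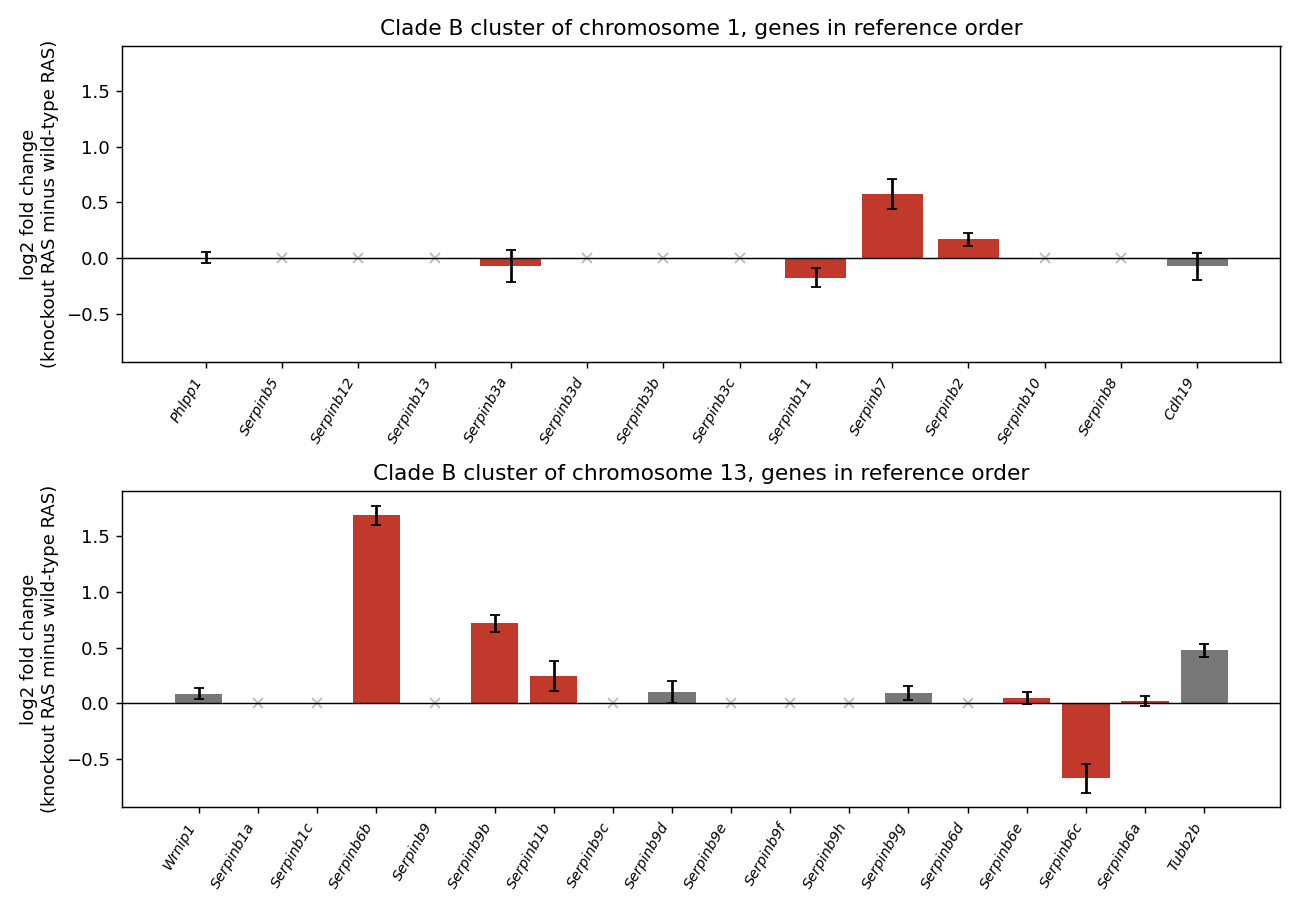
Log2 fold change (knockout RAS minus wild-type RAS, bars, with the SE as whiskers) of clade B serpins in the gene order of chromosome 1 (upper) and chromosome 13 (lower). Red bars are the members, grey bars other measured genes including the nearest ones outside each cluster, and crosses genes not analysed here; Serpinb6b at 1.69 and Serpinb6c at -0.67 stand near opposite ends of the chromosome 13 cluster.

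The promoter windows were searched for 4 short motifs on both strands. The 10 members have 12 windows, so their counts of genes and the shares of all windows are unlike measures. The AP-1 motif TGANTCA is a loose form of the binding element of the JUN and FOS factors, with any base in the middle. It was found in 3 of the 10 members and in 7.81% of 32817 promoter windows of the same length. All 3 lie in the chromosome 1 cluster. Serpinb7 had TGAGTCA at position -45 from the start, marked in its sequence above. Serpinb11 had 2 matches, TGATTCA and TGAATCA, and Serpinb2 had the same match, TGAATCA, in the windows of both its starts. Binding of JUN or FOS to these sites was not tested. An NF-kB motif, GGG and TTCC separated by 3 bases, was found in none of the members and in 5.56% of all windows. The C/EBP motif, TTGC and AA separated by 2 bases, was found in Serpinb2 alone (10.8% of all windows), and a core of the interferon response element, TTTC repeated after a gap of 2 bases, in Serpinb6a alone (3.43%). The windows of Serpinb6b, Serpinb9b and Serpinb6c, the most firmly called members, held none of the 4, which says only that these letters are not in these windows.

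By a fixed measure of likeness, the root-mean-square difference of gene-centred log2 signals over the 8 arrays, the genes most like Serpinb6b were Cdkn2a (0.191), Postn (0.193) and Cxcl10 (0.201). The 8 arrays fall into 2 genotypes, so this measure mostly reflects a step of similar size between them. Cdkn2a averaged 5.84 ± 0.17 in knockout RAS and 4.25 ± 0.08 in wild-type RAS. Postn averaged 6.78 ± 0.12 in knockout RAS and 5.32 ± 0.18 in wild-type RAS, and Cxcl10 averaged 7.86 ± 0.19 in knockout RAS and 6.14 ± 0.18 in wild-type RAS (SD, n = 4 each).

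Serpins of other clades, most of them secreted, were compared with the clade B members. Of 16 measured genes of 35 listed, none passed the test in limma in either direction, and their median log2 fold change was -0.02, where 8.9% of all genes were called. Signals of 4 of the 16 lay below the lower quartile of every array, too low to tell from background. An effect called in some clade B members and in none of these was not tested as a difference between the families.

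Proteases of the classes that clade B serpins act on were also counted. Of 41 measured genes of 52 listed, 11 were called lower, 1 higher and 29 in neither direction, where 4.43% of all genes were called lower and 4.47% higher. The median log2 fold change was -0.16. Signals of 6 of the 41 lay below the lower quartile of every array, too low to tell from background. Tmprss11d, among the 11 called lower, averaged 2.48 in knockout RAS and 2.90 in wild-type RAS, under the array lower quartiles of 3.33 to 3.39. The largest falls were in Ctsk, the cysteine protease cathepsin K, with -0.90 ± 0.07 (SE; adjusted p = 8.25e-06), the epidermal serine protease Tmprss11e with -0.84 ± 0.08 (6.35e-05), the granzyme gene Gzme with -0.83 ± 0.08 (8.28e-05) and Tmprss4 with -0.81 ± 0.09 (0.000221). The Gzme probe set is marked _x_at, which can bind unrelated transcripts, so its fall may not be of Gzme alone. The gene that rose was the kallikrein Klk11, with 0.36 ± 0.08 (0.0135), named after its values were seen. Other kallikreins fell: Klk6 by -0.25 ± 0.06 (0.0231), Klk7 by -0.30 ± 0.06 (0.0123) and Klk9 by -0.30 ± 0.07 (0.016). Klk5, Klk8, Klk10, Klk12 and Klk13 were called in neither direction.

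Values follow for measured proteases that clade B serpins are known to inhibit, with the member named where one is paired with the protease here. Plat, the tissue plasminogen activator and a target of Serpinb2, averaged 6.67 ± 0.04 in knockout RAS and 6.86 ± 0.10 in wild-type RAS (SD, n = 4 each; limma adjusted p = 0.0933). Ctsg, encoding the cathepsin G that Serpinb6a inhibits, averaged 4.00 ± 0.15 in knockout RAS and 3.99 ± 0.05 in wild-type RAS (limma adjusted p = 0.937). Klk8, whose human counterpart SERPINB6 inhibits, was chosen after its values were seen and averaged 11.46 ± 0.05 in knockout RAS and 11.57 ± 0.03 in wild-type RAS (limma adjusted p = 0.224). Gzma and Gzmm, the granzymes named with Serpinb6b and Serpinb9b and chosen after their values were seen, had log2 fold changes of 0.10 ± 0.09 and -0.11 ± 0.07 (SE; adjusted p = 0.585 and 0.434). Gzmb and Ctss, not paired here with any of the members, had -0.16 ± 0.11 and -0.16 ± 0.10 (adjusted p = 0.499 and 0.387). Gzma averaged 3.59 in knockout RAS and 3.49 in wild-type RAS, and Gzmb averaged 3.51 and 3.66. Gzma, Gzmb and Ctsg averaged below the array medians of 4.49 to 4.57, so low signals limit what their values show. Gzmm and Ctss averaged above these medians.

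Of 8 measured genes of plasminogen activation of 14 listed, none was called by limma in either direction, where 8.9% of all genes were called, and their median was -0.14 on the log2 scale. Among 23 measured protease inhibitors of other families of 33 listed, 5 fell, 1 rose and 17 did not pass, with a median of -0.04, where 4.43% of all genes fell and 4.47% rose. The largest falls there were in the cysteine protease inhibitors Stfa3 (-1.18 ± 0.11, SE), Stfa2l1 (-1.09 ± 0.14) and Csta1 (-1.02 ± 0.13) and in the elastase inhibitor Slpi (-0.94 ± 0.06). In the same arrays Serpinb6b, Serpinb9b and Serpinb7 were higher, and Serpinb6c was lower as these inhibitors were.

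Markers of other cells that the cultures could hold were measured beside the members, since granzyme-inhibiting serpins are also made by leukocytes. Of 7 lymphocyte and mast cell markers measured of 16 listed, none passed in limma, where 8.9% of all genes were called. Their summed linear signal was 114 to 131 in knockout RAS and 119 to 133 in wild-type RAS. The T cell receptor component Cd3e had a log2 fold change of 0.00 (adjusted p = 0.997), and Cd3g and Mcpt4 averaged below the lower quartiles of the arrays. Of 12 macrophage and dendritic cell markers of 15 listed, Tyrobp fell by 0.25 ± 0.07 (adjusted p = 0.0367), 11 did not pass and none rose. Over all genes, 4.43% fell and 4.47% rose. Sums of these markers were 309 to 322 in knockout RAS and 333 to 361 in wild-type RAS. Signals of 2 of the 12 lay below the lower quartile of every array, too low to tell from background. The lymphocyte and mast cell sums of the groups overlapped, and those of macrophage and dendritic cell markers were lower in every knockout RAS array. The part of leukocytes in the values of Serpinb6b and Serpinb9b was not tested.

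Other marker lists are read against the 8.9% of all genes called, 4.43% lower and 4.47% higher. Fibroblast markers moved with the genotype: of 8 measured of 16 listed, 6 fell, Postn rose and Fap was not called, with sums of 632 to 717 in knockout RAS and 956 to 1037 in wild-type RAS. Of 4 melanocyte markers of 10 listed, Pmel fell by 0.28 ± 0.06 (SE; adjusted p = 0.0173) and 3 did not pass, with sums of 2226 to 2740 in knockout RAS and 2872 to 2992 in wild-type RAS. None of 6 endothelial markers of 8 listed passed in limma, with sums of 127 to 148 in knockout RAS and 141 to 151 in wild-type RAS. The part of these markers in the change of Serpinb6c or any other member was not tested. These are array signals, so no marker is listed at 0.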

How the data were processed

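Biotin-labelled total RNA of 8 mouse keratinocyte cultures, purified by Trizol and column per the labels' protocols, was read on a one-colour oligonucleotide array. The authors' deposited table lists 11373 probe sets with a value for each array, and values between 1.57 and 13.9 were read as log2 signals. How they were summarised and normalized, and on which genome build, is not given in the sources used here. Detection calls, scan dates and batches were not used here.

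The platform annotation named 1 gene for 9374 probe sets, several for 479 and none for 1520. Where a gene had several probe sets of its own, the brightest on average was used. All 10 serpins matched the gene table of GRCm38.p6 by Entrez identifier, and all 10 had a RefSeq promoter. Linear models of limma 3.58.1 (lmFit, eBayes; R 4.3.3) were fitted to the deposited log2 values, and p-values were adjusted by Benjamini-Hochberg over 9294 genes with a threshold of 0.05. "Rose", "fell" and "called" mean past that threshold. The fit was tested on simulated data with independent noise for each gene, so effects shared by an array or culture were not covered. Errors and p-values cover the spread among 4 cultures of a genotype, and this small number limits precision.

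The serpins and the gene lists were chosen with earlier results of these data known. All 10 serpins are named, with up to 4 called genes of largest change per protease or inhibitor list. Plat, Ctss, Ctsg and Gzmb are named as known targets of clade B serpins, not all of them of the members. The 3 genes most like the top serpin and the measured genes nearest each cluster are named too. Other genes named were chosen after their values were seen. Alternatives were quantile normalization, median centring, leaving out the lowest 25% of genes, averaging or testing all probe sets, a variance trend, the replicate number as a block, and leaving out each array.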

Additional observations from a re-analysis of the deposited data

Results flagged for a closer look

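With 4 arrays per group, 3 of 20 groups of values held an array that stood apart from the others by Dixon's criterion, which chance alone meets in about 1 of 20 groups. Serpinb3a in wild-type RAS replicate 2 had a log2 signal of 3.02, with the other wild-type RAS arrays between 3.54 and 3.55. Serpinb6a in knockout RAS replicate 4 had 11.253, with the others between 11.293 and 11.297. Serpinb11 in knockout RAS replicate 1 had 7.68, with the others between 7.91 and 7.95. The flagged values fall in 3 different arrays, and none belongs to a serpin that passed the test.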

How the results depend on the processing

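Over 15 alternatives, Serpinb6b, Serpinb9b and Serpinb6c kept their direction and an adjusted p under 0.05 (highest 2.85e-05, 0.00126 and 0.0296). Between 3 and 5 serpins were called, 3 to 4 with any single array left out. Between 4 and 6 had groups that did not overlap, the 6 in the run without knockout RAS replicate 4. The share of all genes without overlap, 15.9%, was taken only from the 8 arrays as deposited. Arrays split 3 against 4 separate more easily than 4 against 4, so the 6 is not comparable with that share. Over all genes 598 to 1124 were called, 598 to 687 with single arrays left out. Serpinb7 lost its call in 6 of the 8 runs that left out an array. Serpinb2 passed with a variance trend (adjusted p = 0.00287), and Serpinb1b passed without knockout RAS replicate 4 (log2 fold change 0.39). Serpinb3a, never called, had a log2 fold change of 0.041 without knockout RAS replicate 3 in place of -0.07 (-0.20 to 0.041 with single arrays left out), and has no value with the lowest 25% of genes left out. The cause of these shifts was not tested. The replicate number as a block gave 659 called genes and the same 4 called serpins. Same-numbered arrays had correlations of deviations from -0.05 to 0.09 and 1 of 4 knockout RAS arrays correlated best with its own number. These few correlations cannot decide whether same-numbered cultures were prepared together. Without detection calls, low signals such as those of Serpinb3a and Serpinb7 limit what their values show.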
